A study of Mus musculus with 8 samples.

Results

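The interferon-stimulated genes are the 33 genes of a list of type I interferon targets, matched by symbol to the deposited count table. Of these, 31 had a row among the 23171 genes of the table, and Mx1 and Mx2 were not analysed here. A filter on low counts kept 22 of the 31, among 14004 genes tested in all, and 9 stood below it. RNA was sequenced from epidermis of imiquimod-treated mice, 4 in which Hnrnpu was knocked out in the epidermis (cKO) and 4 controls labelled WT. Imiquimod, which all 8 mice received, activates Toll-like receptor 7 and gives psoriasis-like skin inflammation. The sources used here do not give the promoter that drives the deletion, the deleted exons, the strain, the age or the genotype of WT beyond that name. No untreated sample was analysed here, so the values say nothing of how far imiquimod changed any gene.

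Type I interferons bind the receptor made of IFNAR1 and IFNAR2, whose kinases JAK1 and TYK2 phosphorylate STAT proteins, STAT2 among them. With IRF9 these form a complex that binds the interferon-stimulated response element in the promoters of target genes. The products of these genes block viral entry, degrade viral RNA, hold viral proteins back and also feed back on the pathway. In psoriasis-like inflammation, plasmacytoid dendritic cells and keratinocytes are known sources of type I interferon.

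Promoter windows of 300 bases, from 250 before to 50 after the gene start, were taken from RefSeq (GRCm38.p6) and searched for the core of this element. The motif was GAAA, any 2 bases and again GAAA, on both strands, and overlapping matches were each counted. Windows were sought for the 31 members with a row in the count table and found for 24. Of the 24, 11 (45.8%) held the motif, against 3.99% of 27025 gene symbols. By window, 11 of 29 member windows (37.9%) and 3.44% of all 32851 windows held it. The core of the gamma-activated site, TTCNNNGAA, was in windows of 7 of the 24, or 29.2%, against 9.55% of symbols. A match is a run of letters and not a shown binding site, and the build behind the deposited counts is unknown, so members were matched to these windows by symbol. The stretches below show the element in genes whose library pattern or level is described further on, with motif matches in capitals, 5′ to 3′ on the gene's strand.
Isg15, chr4:156200863-156200908, minus strand: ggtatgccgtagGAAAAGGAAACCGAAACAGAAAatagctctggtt
Ifit1, chr19:34640773-34640825, plus strand: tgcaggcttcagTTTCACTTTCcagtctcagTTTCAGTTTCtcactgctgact
Rsad2, chr12:26456551-26456584, minus strand: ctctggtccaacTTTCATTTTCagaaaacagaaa
Oas1a, chr5:120907518-120907557, minus strand: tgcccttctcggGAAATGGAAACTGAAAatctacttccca
Ifit3, chr19:34583361-34583428, plus strand: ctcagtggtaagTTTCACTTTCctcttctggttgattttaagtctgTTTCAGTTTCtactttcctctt
Ifit3b, chr19:34607757-34607824, plus strand: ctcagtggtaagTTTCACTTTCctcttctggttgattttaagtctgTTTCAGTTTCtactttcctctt
Isg15 has 3 overlapping matches in 1 run, starting 78, 72 and 66 bases before its start. Ifit1 has 2 separate matches, at 104 and 85 bases before. The stretches of Ifit3 and Ifit3b are the same over all 68 bases. Their longest open reading frames, of 1212 bases each in GENCODE M21 transcripts, are 99.1% identical, so how counts were shared between these 2 genes is uncertain. Windows of Irf7, Irf9, Ifitm1, Ifit2, Trim25, Xaf1 and 7 other members did not hold these letters.

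Libraries held 37158621 to 38865722 counts. Hnrnpu itself stood at 190 to 373 CPM (each gene's share of a library's counts on a common scale, adjusted with TMM factors) in the cKO libraries and at 424 to 454 CPM in the WT libraries. Counts over a whole gene also include transcripts that lack only the deleted exons. All 12 keratinocyte markers passed the count filter, with a summed level from 64992 to 91871 CPM in cKO and from 74146 to 96515 CPM in WT. Interferon ligands were at the floor. Of 4 ligand genes with a row, Ifnb1 had at most 1 count, Ifng at most 1, Ifnk at most 2 and Ifnz at most 2 in any library, so none was tested.

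Levels of the interferon-stimulated genes ranged widely. On the per-length FPKM scale, which allows levels to be compared between genes, 16 of the 31 averaged under 1. A further 12 stood from 1 to 10 and 3 at 10 or more. Irf7, at 1.04 FPKM, stood above 55.2% of all rows of the table and Oas1a, at 0.717 FPKM, above 52.6%. The share of all rows under 1 FPKM thus lay between 52.6% and 55.2%, near that of the members. Ifitm3, a membrane protein that blocks virus fusion, had the highest mean at 137 FPKM, above 98.0% of all rows of the table. Ifi35, which binds other interferon-induced proteins, followed at 13.9 FPKM and Trim25, a ubiquitin ligase that activates RIG-I, at 11.2 FPKM. Isg15, the ubiquitin-like protein that is conjugated to targets in interferon-treated cells, averaged 1.23 FPKM. Genes commonly read as interferon reporters were lower still, with Ifit1 at 0.102 FPKM, Rsad2 at 0.0418 FPKM and Ifi44 at 0.00572 FPKM.

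**Figure D1:**
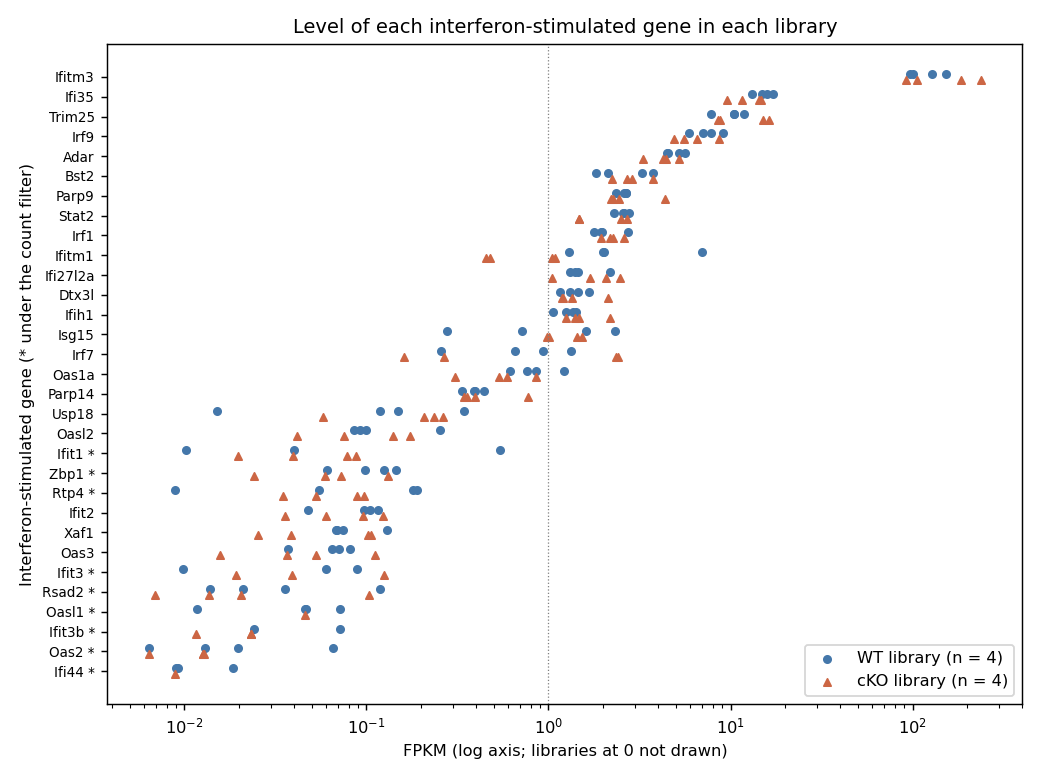
FPKM of each of 31 interferon-stimulated genes (rows, ordered by mean) in each library, on a log axis, with circles for WT and triangles for cKO; genes with an asterisk were under the count filter and libraries at 0 are not drawn. Ifitm3 stands apart near 137 FPKM, and 16 genes average under 1 FPKM (dotted line).

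No interferon-stimulated gene was called different between cKO and WT. Of the 22 tested, 0 passed an adjusted p of 0.05 in edgeR's quasi-likelihood test, where 1.32% of all tested genes did. At an unadjusted p under 0.05 stood 1 of 22 (4.55%), against 18.6% of all tested genes. DESeq2 called 1 member, Ifitm1, with 8.1% of its genes called, and limma-voom called 0, with 1.21% called. Fold changes were positive in 11 members and negative in 11, where 51.9% of all tested genes had a positive one. Their median was -0.03 on the log2 scale, beside 0.01 over all tested genes, and their mean was -0.15. The typical size of a change, a median absolute log2 fold change of 0.26, stood beside a median standard error of 0.29, and the same 2 values over all tested genes were 0.20 and 0.18. A missed threshold does not show that levels were equal in the 2 genotypes.

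**Figure D2:**
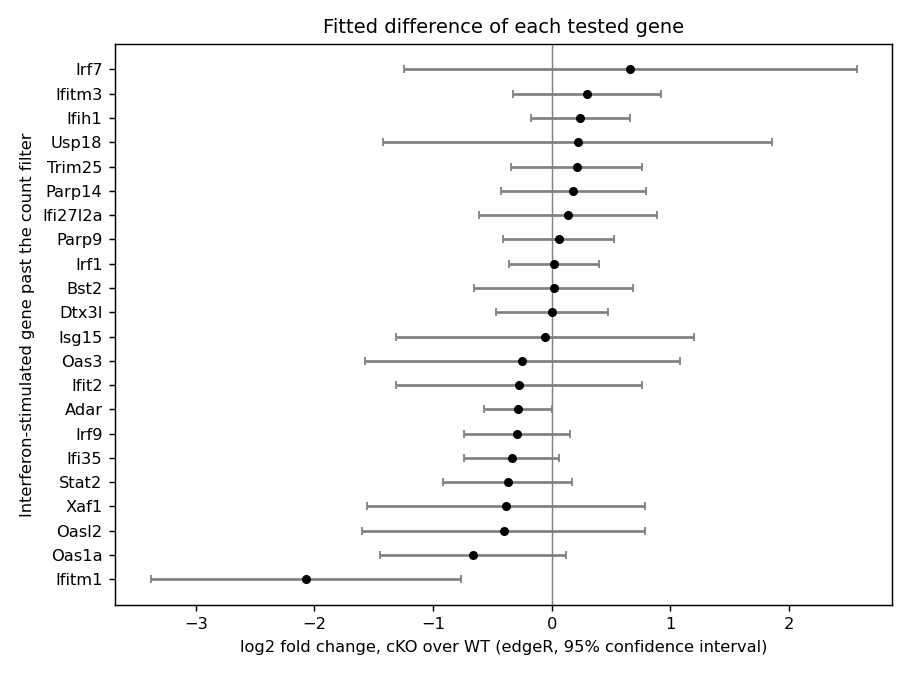
Fitted log2 fold change (cKO over WT) of the 22 tested interferon-stimulated genes, with 95% confidence intervals from edgeR on 4 libraries per genotype. Ifitm1, at -2.07, is the 1 gene whose interval lies wholly on one side of 0.

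The transcription factors that carry the interferon signal did not pass the test in either direction. Stat2, the factor particular to type I and type III interferon signalling, stood at 6.55, 13.0, 10.5 and 6.09 CPM in cKO 1 to 4 and at 10.2, 12.7, 12 and 11.9 CPM in WT 1 to 4. The genotypes overlapped, since cKO 2 was the highest of all 8 libraries while cKO 1 and 4 lay below every WT library. Its log2 fold change was -0.37 ± 0.24 (SE, edgeR adjusted p = 0.449).

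Irf9, the DNA-binding partner of STAT2, stood at 13.1, 18.8, 21.6 and 13.8 CPM in cKO and at 18.9, 21.5, 25.6 and 16.3 CPM in WT. As for Stat2, cKO 1 and 4 lay below every WT library and cKO 2 and 3 lay within the WT range. The log2 fold change was -0.29 ± 0.20 (SE, edgeR adjusted p = 0.470).

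Irf7, the factor that amplifies interferon production, varied widely among the cKO mice, at 0.312, 4.85, 4.34 and 0.476 CPM. The WT libraries stood at 1.78, 1.30, 2.69 and 0.509 CPM. Thus cKO 2 and 3 were above every WT library and cKO 1 and 4 below all of them, and the fitted difference of 0.66 ± 0.85 (SE, edgeR adjusted p = 0.726) has an interval from 0.421 to 5.97 times the WT level. Its sign turned in limma-voom, at -0.02. Irf7 is abundant in some immune cells, and the summed level of 12 Langerhans and dendritic cell markers also differed among the cKO libraries, at 485, 813, 676 and 325 CPM, against 368 to 488 CPM in WT. None of the 10 of these markers that were tested was called by edgeR, Clec9a was at 0 in all but 1 library, and their part in the Irf7 values was not tested. In bulk RNA, fewer cells of a type and less RNA per cell cannot be told apart.

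Irf1, a factor induced by both type I interferon and interferon gamma, varied little in cKO. It stood at 7.26, 7.002, 8.18 and 7.02 CPM in cKO and at 6.47, 9.48, 6.25 and 6.80 CPM in WT. All 4 cKO libraries lay inside the WT range (edgeR adjusted p = 0.964 for a log2 fold change of 0.02 ± 0.17 SE), and its interval runs from 0.780 to 1.32 times the WT level.

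In the ISG15 system, Isg15 stood at 1.14, 0.812, 1.01 and 0.690 CPM in cKO and at 1.21, 0.553, 1.83 and 0.214 CPM in WT, from 8 to 66 counts. The cKO values lay within the WT range, whose ends were WT 3 and WT 4 (edgeR adjusted p = 0.974, log2 fold change -0.06 ± 0.56 SE). Its sign turned in 10 of 18 alternative fits, so no direction can be given. Usp18, the protease that removes ISG15 and restrains the receptor, had 1 to 23 counts per library and a log2 fold change of 0.22 ± 0.73 (SE, edgeR adjusted p = 0.908).
Trim25 stood at 47.8, 90.6, 85.1 and 45.2 CPM in cKO and at 57.8, 60.1, 69.6 and 44.8 CPM in WT. Here cKO 2 and 3 were above every WT library, while cKO 1 and 4 lay within the WT range (log2 fold change 0.21 ± 0.25 SE, edgeR adjusted p = 0.697).

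**Figure D3:**
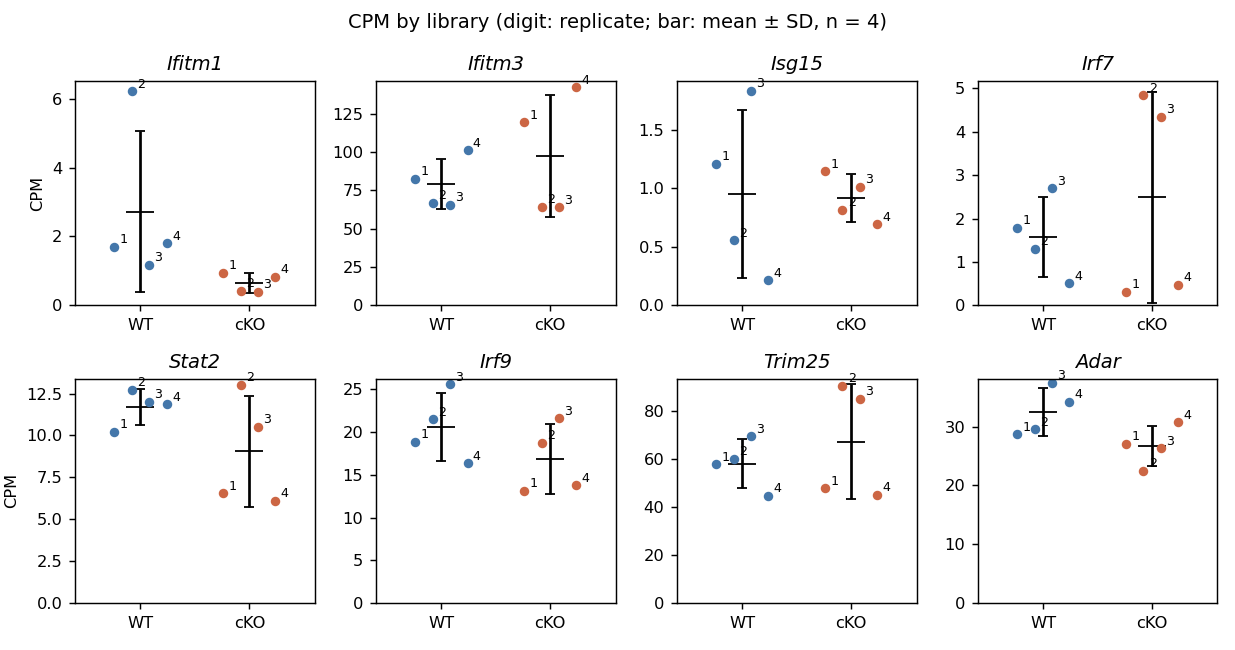
CPM of 8 interferon-stimulated genes in each library (points, with the replicate number beside each), with the mean and SD of 4 libraries per genotype as black bars; vertical axes start at 0. In Ifitm1 all cKO points lie below all WT points, and in Irf7, Stat2 and Trim25 cKO 2 and 3 lie above cKO 1 and 4.

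The IFIT and OAS families hold proteins that bind foreign RNA or make oligoadenylates in response to it. Of 4 IFIT genes only Ifit2 passed the count filter, with 6 to 21 counts and a log2 fold change of -0.28 ± 0.46 (SE, edgeR adjusted p = 0.801). Ifit1 had 4, 2, 9 and 8 counts in cKO 1 to 4 and 4, 1, 54 and 0 counts in WT 1 to 4. A single library, WT 3, thus held most of its reads. Ifit3 had 0 to 13 counts and Ifit3b 0 to 6.
Of 5 OAS genes, 3 were tested, and all 3 had a negative fold change without passing. Oas1a, an oligoadenylate synthetase, stood at 0.598, 1.12, 1.54 and 1.07 CPM in cKO and at 1.65, 1.52, 2.47 and 1.23 CPM in WT. The ranges overlapped, with WT 3 highest and cKO 1 lowest (log2 fold change -0.66 ± 0.35 SE, edgeR adjusted p = 0.347). Oasl2 was at -0.40 ± 0.53 (SE, adjusted p = 0.736) and Oas3 at -0.25 ± 0.59 (SE, adjusted p = 0.869), both in edgeR's test, and the sign turned positive for Oasl2 without WT 3 (0.13) and for Oas3 without cKO 4 (0.07). Oas2 had at most 10 counts and Oasl1 at most 6 in a library.

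Among the membrane and other effectors, Ifitm1 differed most of all members. This gene encodes a membrane protein that blocks virus fusion at the cell surface. It stood at 0.936, 0.420, 0.386 and 0.833 CPM in cKO and at 1.70, 6.22, 1.17 and 1.79 CPM in WT, from 15 to 225 counts. Every cKO library lay below every WT library, the 1 such separation among the 22 members, where 11.1% of all tested genes had their genotypes separated in either direction, 5.82% with cKO below and 5.26% with cKO above.
On the log2 scale the fitted difference was -2.07 ± 0.58 (SE), with a 95% confidence interval from -3.38 to -0.76, or 0.238 times the WT level. It did not pass edgeR's test (adjusted p = 0.107). An exact permutation test, two-sided, gave 0.0286, which no split of 4 and 4 libraries can go below. DESeq2 gave an adjusted p of 0.00543, and the range over 18 alternatives was 0.00543 to 0.303. The size rested in part on WT 2, without which the log2 fold change was -1.25 (edgeR adjusted p = 0.217).
WT 2 also held the highest summed level of 12 fibroblast and endothelial markers, 11.5 CPM. The other WT libraries stood at 2.70 to 6.63 CPM and the cKO libraries at 2.65 to 4.73 CPM. Most of the WT 2 sum came from Col1a1, Col1a2 and Col3a1, at 3.01, 2.05 and 3.235 CPM. Dcn, Pdgfra and Cdh5 were also highest in WT 2. The endothelial gene Pecam1 was lowest among WT there, at 0.885 CPM. Among WT, Vwf, Kdr and Plvap were highest in WT 1, and Lum and Tek in WT 4. The neutrophil gene Retnlg was at 6.08 CPM in WT 2 and at most 0.214 CPM elsewhere. The summed level of 11 neutrophil markers ran from 12.8 to 32.6 CPM in cKO and from 25.3 to 43.9 CPM in WT, most of it from Cxcr2 and Itgam. Cxcr2 was lowest among WT in WT 2, at 17.6 CPM, where Retnlg, Clec4d, Csf3r and Mmp8 were highest. The granule gene Camp was at 0 in 7 of 8 libraries, none of the 4 tested markers was called by edgeR, and the part of these cells in the Ifitm1 values was not tested.

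Ifitm3, a close relative of Ifitm1, did not show that separation. It stood at 119, 64.2, 63.9 and 142 CPM in cKO and at 82.3, 67.0, 65.7 and 101.2 CPM in WT. Here cKO 1 and 4 were above every WT library and cKO 2 and 3 below every one, the reverse of the order seen in Irf7 and Trim25 (edgeR adjusted p = 0.605, log2 fold change 0.30 ± 0.28 SE). The longest open reading frames of Ifitm1 and Ifitm3 are 63.5% identical.
Ifi35 stood at 15.7, 21.4, 18.1 and 11.99 CPM in cKO and at 21.3, 18.4, 24.4 and 20.7 CPM in WT. Only cKO 2 lay inside the WT range and the other cKO libraries lay below it, but the difference did not pass (log2 scale, -0.34 ± 0.18 SE, edgeR adjusted p = 0.344).
Bst2, tetherin, was at 0.02 ± 0.30 (SE), Ifi27l2a, a mitochondrial protein, at 0.14 ± 0.33 and Xaf1, a pro-apoptotic factor, at -0.38 ± 0.52 on the log2 scale, with edgeR adjusted p from 0.749 to 0.984. Rsad2, which makes a chain-terminating nucleotide, had at most 17 counts in a library, Rtp4 at most 21 and Ifi44 at most 2, and none of the 3 was tested.

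Adar, the enzyme that edits adenosine to inosine in double-stranded RNA and so limits its sensing, stood at 27.1, 22.5, 26.3 and 30.7 CPM in cKO and at 28.7, 29.5, 37.4 and 34.2 CPM in WT. Only cKO 4 reached into the WT range. The log2 fold change was -0.28 ± 0.13 (SE, edgeR adjusted p = 0.276), and it kept its sign in all 18 alternative fits, from -0.35 to -0.18, without being called in any.
Ifih1, the double-stranded RNA sensor MDA5, stood at 7.05, 8.85, 11.4 and 7.28 CPM in cKO and at 7.60, 8.15, 7.33 and 6.13 CPM in WT. The genotypes overlapped, with cKO 3 highest (0.24 ± 0.19 SE, edgeR adjusted p = 0.523). Zbp1, a sensor of left-handed nucleic acid, had 2 to 12 counts and was not tested.
Parp9 and Dtx3l, partners in a complex that modifies histones and ubiquitin, and Parp14, a related mono-ADP-ribosyltransferase, had log2 fold changes of 0.06 ± 0.21, 0.00 ± 0.21 and 0.18 ± 0.27 (SE). Their edgeR adjusted p ran from 0.771 to 0.993. In each of the 3, cKO 3 held the highest level of all 8 libraries, and without it the log2 fold change was negative, at -0.18, -0.19 and -0.12.

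The library that held the highest level was often the same across members. WT 3 was the highest of all 8 libraries in 14 of 31 interferon-stimulated genes. Among tested members it was highest in 9 of 22 (40.9%), where WT 3 was highest in 11.4% of all tested genes. The 14 were Isg15, Ifit1, Ifit2, Ifit3b, Oas1a, Oas2, Oasl2, Irf9, Rsad2, Usp18, Ifi35, Xaf1, Rtp4 and Adar. In the 9 genes under the count filter, summed counts were 127 in WT 3 and from 16 to 43 in the other libraries, and Ifit1 gave 54 of the 127.
Among the WT libraries, WT 4 was highest of the 8 in 0 of 22 tested members (14% of all tested genes), and WT 1 was also highest in 0 (5.53%). Relative to the mean of its own genotype, WT 3 was higher in 17 of 22 tested members, with a median deviation of 0.31 on the log2 scale, and WT 4 was higher in 7 with a median of -0.24. Over all tested genes the median deviations of these libraries were 0.00 and 0.00.

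**Figure D4:**
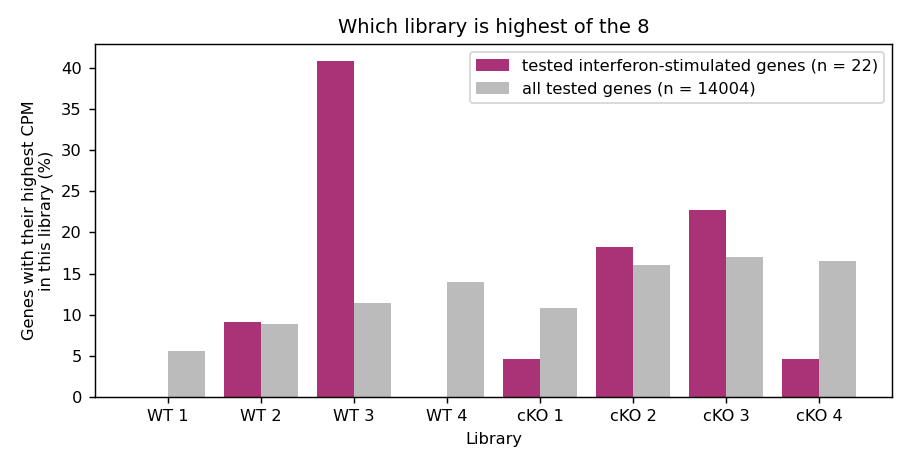
Percent of genes whose highest CPM of the 8 libraries fell in each library, for 22 tested interferon-stimulated genes and for all 14004 tested genes. WT 3 was highest in 40.9% of the interferon-stimulated genes and in 11.4% of all tested genes.

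Among the cKO mice a second pattern was seen. The 2 highest cKO values fell in cKO 2 and cKO 3 in 11 of 22 tested members (50%), a pair that held the 2 highest in 28.1% of all tested genes. These were Oas1a, Irf7, Irf9, Ifi35, Stat2, Ifih1, Xaf1, Ifi27l2a, Parp9, Dtx3l and Trim25. The pair cKO 1 and 4 held the 2 highest in 4 members (Ifit2, Ifitm1, Ifitm3 and Adar), or 18.2% against 25.9% of all tested genes. The median deviation from the cKO mean was -0.10, 0.06, 0.40 and -0.29 on the log2 scale in cKO 1 to 4, and it lay between -0.01 and 0.02 in each over all tested genes. Hnrnpu stood at 190, 373, 355 and 312 CPM in cKO 1 to 4. Beside the same split, the Langerhans and dendritic cell sums given with Irf7 were higher in cKO 2 and 3 than in cKO 1 and 4. Epcam and Cd74 gave most of each sum. The 2 highest cKO values fell in cKO 2 and 3 for these, Cd207, Flt3, H2-Aa, H2-Ab1, H2-Eb1 and Ccr7. They fell in cKO 1 and 3 for Itgax and in cKO 1 and 2 for Zbtb46. Xcr1 and Clec9a were at no more than 0.0260 CPM in any cKO library.
The spread among mice was wider in cKO. The median SD of log2 CPM over tested members was 0.53 in cKO and 0.32 in WT, beside 0.28 and 0.19 over all tested genes. The SD was larger in cKO for 17 of 22 members (77.3%) and for 69.7% of all tested genes. These shares describe genes measured in the same libraries, which are not independent of each other.

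**Figure D5:**
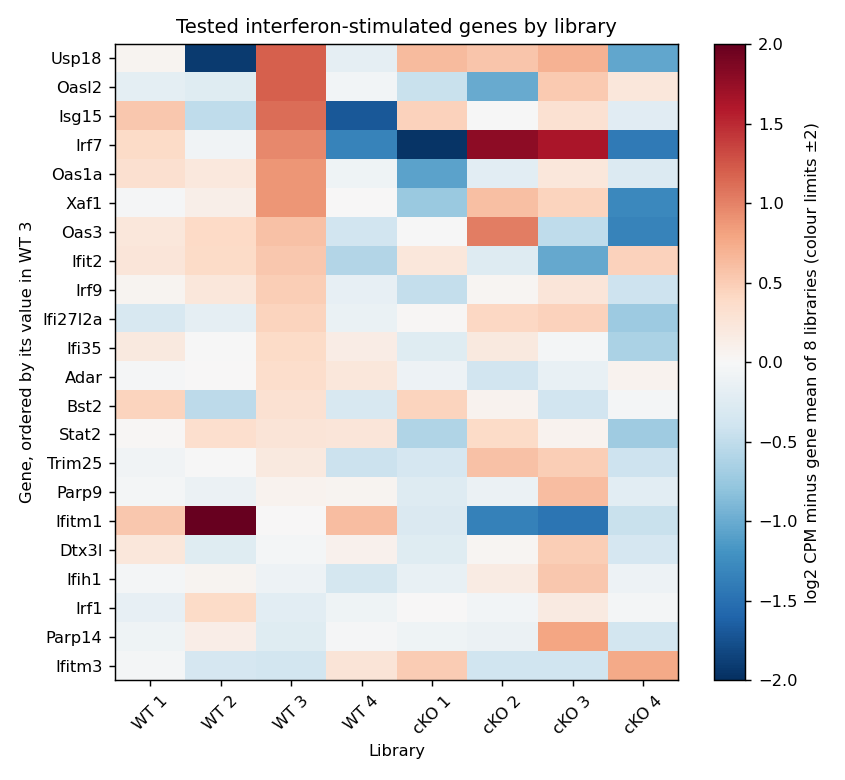
Log2 CPM of 22 tested interferon-stimulated genes minus each gene's mean over 8 libraries (colour, limits ±2), with genes ordered by their value in WT 3. WT 3 is above the mean for most genes, Irf7 is high in cKO 2 and 3 and low in cKO 1 and 4, and Ifitm1 is high in WT 2.

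Marker levels of other cells differed among the same libraries. T cell markers (8 in the table) summed to 25.1, 14.8, 53.2 and 84.7 CPM in WT 1 to 4 and to 33.6, 56.2, 46.4 and 20.2 CPM in cKO 1 to 4. Monocyte and macrophage markers (12) summed to 66.9, 54.8, 77.5 and 91.4 CPM in WT and to 93.3, 55.9, 61.2 and 39.6 CPM in cKO. Among the WT mice both sums peaked in WT 4, where 15 of 22 members lay below the WT mean. Ccr2 gave 29.6 CPM of the macrophage sum in WT 4 and 4.92 to 18.7 CPM in the other WT libraries. C1qa, C1qc, Mrc1 and Ms4a7 were also highest among WT in WT 4. Adgre1, Csf1r and Cx3cr1 were highest in WT 1, Cd68, C1qb and Fcgr1 in WT 3, and Lyz2 in WT 2. The Langerhans and dendritic cell sum was highest among WT in WT 3, at 488 CPM. Of these markers, Epcam, Cd207 and Zbtb46 were highest among WT in WT 3, at 202, 6.28 and 0.3055 CPM. Cd74, H2-Aa, H2-Ab1, H2-Eb1, Itgax, Ccr7 and Xcr1 were highest in WT 4, and Flt3 in WT 1. Among the cKO mice the T cell sum was higher in cKO 2 and 3, as the dendritic cell sum was, and the macrophage sum peaked in cKO 1. Thy1 gave 31.5 CPM of the T cell sum in cKO 2 and 9.78 to 15.3 CPM in the other cKO libraries. Within cKO, Cd3e, Cd2 and Thy1 were highest in cKO 2, and Cd3d, Cd3g and Cd247 in cKO 3. Cd4 and Cd8a were highest in cKO 1, and Cd3d and Cd247 were higher in cKO 1 than in cKO 2. The 12 plasmacytoid dendritic cell markers summed to 58.6 and 60.5 CPM in cKO 2 and 3, and to 43.8 and 38.4 CPM in cKO 1 and 4, with most of each sum from Tcf4 and Smim5. Siglech, the defining marker of plasmacytoid dendritic cells, was at most 0.217 CPM in any library. The part of any cell type in these patterns was not tested. By promoter, WT 3 was highest in 5 of 11 members with the motif shown above and in 6 of 13 with a window that lacks it.

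Genes upstream and beside the list were counted from 6 further lists. These were of ligands, receptors and kinases, transcription factors and feedback, nucleic acid sensors, other interferon-stimulated genes and genes grouped under interferon gamma. Of 132 such genes with a row, 103 were tested, and 0 rose and 1 fell by edgeR's adjusted p, where 0.671% and 0.65% of all tested genes did. At an unadjusted p under 0.05 stood 21 (20.4%, against 18.6% of all tested genes), and DESeq2 called 14, where it called 8.1% of all its genes. The gene that fell was Socs3, an inhibitor of cytokine receptor signalling. It stood at 23.0, 27.9, 23.9 and 26.3 CPM in cKO and at 54.3, 43.1, 124 and 92.9 CPM in WT. Every cKO library lay below every WT library, and WT 3 was highest (edgeR adjusted p = 0.0363, log2 fold change -1.64 ± 0.30 SE). Its call was lost in 10 of 18 alternative fits, among them those without cKO 1, cKO 3, cKO 4, WT 1, WT 3 or WT 4, with adjusted p up to 0.131.

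Of 9 receptor and kinase genes edgeR called 0, with 3 at an unadjusted p under 0.05 (33.3%, against 18.6% of all tested genes). DESeq2 called 2 of them, Jak1 and Jak2, where it called 8.1% of all its genes. The type I receptor genes Ifnar1 and Ifnar2 were at -0.09 ± 0.12 (SE, edgeR adjusted p = 0.739) and -0.51 ± 0.20 (adjusted p = 0.205), and Jak1 and Ifngr2, the most abundant, at -0.26 ± 0.08 (adjusted p = 0.135) and 0.03 ± 0.11 (adjusted p = 0.922). Ifnar2 stood at 4.51 to 8.42 CPM in cKO and at 9.53 to 10.6 CPM in WT without overlap, as did Jak1 at 180 to 207 against 224 to 231 CPM. Jak2 was also separated, at 26.9 to 29.1 against 33.3 to 55.6 CPM. These were 3 of the 9 with cKO below WT, where 5.82% of all tested genes were, and 0 had cKO above. Of 13 transcription factor and feedback genes Socs3 was the 1 called by edgeR, where 1.32% of all tested genes were called. DESeq2 called 2 of the 13, Socs3 and Socs1, against 8.1% of all its genes.
Of 21 tested sensor and adaptor genes edgeR called 0, with 6 at an unadjusted p under 0.05 (28.6%, against 18.6% of all tested genes). DESeq2 called 4 of them, against 8.1% of all its genes. Tlr7, the receptor that imiquimod activates, was at 0.112 to 0.364 CPM in cKO and 0.277 to 0.472 CPM in WT (adjusted p = 0.400), from 4 to 18 counts. The adaptors Traf6 (-0.07 ± 0.20 SE, edgeR adjusted p = 0.891) and Myd88 (-0.34 ± 0.12, adjusted p = 0.187) were the most abundant of them.

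Of 57 tested genes in the list of other interferon-stimulated genes edgeR called 0. At an unadjusted p under 0.05 stood 7 (12.3%, against 18.6% of all tested genes). DESeq2 called 4 (Ifi204, Samhd1, Slfn2 and Tap1), against 8.1% of all its genes. Of the 57, 30 had a positive and 27 a negative fold change, and their median was 0.03. B2m, the light chain of MHC class I, was at 0.47 ± 0.16 (SE, edgeR adjusted p = 0.166) and Ly6e, a membrane protein of the Ly6 family, at 0.21 ± 0.19 (adjusted p = 0.610). The WT 3 pattern did not carry over to the 57 tested genes of this list. WT 3 was highest of the 8 libraries in 5 of the 57 (8.77%), and cKO 3 in 20 (35.1%), where cKO 3 was highest in 17.0% of all tested genes. Among its untested genes, Cmpk2, Ifi211, Ifit1bl1, Ifit1bl2, Phf11a and Slfn1 were highest in WT 3. Ddx60, Ifi205, Ifi206, Ifi208, Ifi213, Iigp1, Phf11b, Trim30d and Trim5 were highest in other libraries. Ifi211 had up to 145 counts in a library, and the other untested genes at most 25. Of 6 tested genes on the interferon gamma list edgeR called 0, with 3 at an unadjusted p under 0.05 (50%, against 18.6% of all tested genes). Whether type I interferon also induces genes of that list was not examined, so the share is not a measure of interferon gamma alone. DESeq2 called 3 (Cxcl10, Serpina3g and Socs1), against 8.1% of all its genes. The most abundant were Cd274, the ligand of PD-1, (-0.40 ± 0.60 SE, edgeR adjusted p = 0.775) and Socs1, a JAK inhibitor also on the feedback list (-1.74 ± 0.42, adjusted p = 0.0726).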

How the data were processed

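Per the labels, total RNA of mouse epidermis (keratinocytes) from 8 libraries in 1 batch was extracted with TRIzol, and 4 mice of each genotype are named in the series' design text. The authors deposited raw counts per gene and FPKM values. HISAT2 and HTSeq were used per the submitters' processing notes. The sources used here give no versions, genome build, annotation or strand setting, so antisense reads could not be told apart. The deposited FPKM implied 1 length per gene for all 20863 genes counted in 2 or more libraries (relative tolerance 1e-04), so both tables hold the same reads.

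Counts were filtered with filterByExpr, scaled with TMM and compared with edgeR 4.0.16 (R 4.3.3, quasi-likelihood test, no covariate), with Benjamini-Hochberg adjustment over 14004 genes. Standard errors are those implied by the F statistic. Log2 CPM has a prior count of 2. Tested on simulated counts of the cKO and WT libraries (14004 genes), it called 57% of genes given a 2-fold change and 84% of those given a 4-fold change, and 9 of 150 calls were false. The changed genes were drawn at random from all 14004, so recovery among the interferon-stimulated genes was not measured. The median standard error was 0.29 in the tested members and 0.18 over all tested genes. No pair of libraries within a genotype agreed within sampling noise (lowest chi-square per degree of freedom 47.9). Alternatives were DESeq2 1.42.0, limma 3.58.1 (voom, and log2(FPKM + 1) or log2(FPKM + 0.1) at a mean FPKM of at least 0.5 or without that filter), other scalings and filters, the replicate number as a block, and leaving out each library.

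The members and gene lists were chosen with earlier results of these data known, so no test is given over a list. Values in every library are given for the 8 tested members with the smallest p, the 5 with the highest FPKM, Stat2, Irf9, Irf7, Irf1 and Isg15. From other lists, called genes or the 2 of highest mean CPM are named, with the receptors, Tlr7 and 3 ligands. Some results of the rule are not reported here. Counts of Ifit1, the library orders, Ifnz, Retnlg, Camp, Clec9a, Siglech and other single markers, and genes named for a DESeq2 call were added after their values were seen.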

Additional observations from a re-analysis of the deposited data

Results flagged for a closer look

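In 6 of 88 groups of 4 libraries, 1 library stood far from the other 3 on the log2 CPM scale, by a gap over the group's range above Dixon's 95% critical value. Chance flags about 1 in 20 such groups. WT 3 stood high in Oasl2 (0.871, at 0.833 CPM against 0.277 to 0.321) and in Xaf1 (0.838, at 0.833 CPM against 0.419 to 0.470). In cKO, replicate 4 stood low in Usp18 (0.924), on 4 counts, and replicate 3 stood high in Parp9 (0.841, at 14.1 CPM against 7.62 to 8.40). Among genes beside the list, cKO 2 stood low in Ifnar2 (0.867) and WT 4 stood high in Ly6e (0.849).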

How the results depend on the processing

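The count of interferon-stimulated genes called stayed at 0 in 17 of 18 alternatives and was 1 with DESeq2. Their median log2 fold change, -0.03, lay between -0.17 and 0.08 and was positive in 9 of 18. Genes called over the whole table, 185, became 349 without a count filter, 1294 with DESeq2 and 19 on log2(FPKM + 1) without a filter, and ran from 8 to 506 when 1 library was left out. Genes of the other pathway lists called, 1, became 3 with library size scaling, 6 without a count filter, 2 at 1 CPM in 4 libraries, 14 with DESeq2, 3 on log2(FPKM + 0.1), 0 on log2(FPKM + 1) without a filter, and 0 to 6 when 1 library was left out; the cause was not tested. The count stayed at 1 with limma-voom and on log2(FPKM + 1) with the filter, but the gene called there was Serpina3g and not Socs3. With the replicate number as a block, 0 interferon-stimulated genes, 216 genes in all and 0 of the other lists were called. The numbers pair no samples by any label, deviations of same-numbered libraries correlated at -0.10, 0.13, 0.10 and 0.19, and 4 of 8 libraries correlated best with their own number.

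Library size scaling moved the median of all genes from 0.01 to 0.07. Of 772 single-gene values over 44 genes, 697 kept sign and side of the threshold, 36 in 14 genes turned sign, and 0 of those were called. Isg15 (-0.06) was 0.0085 with library size scaling, 0.31 with limma-voom, 0.0919 on log2(FPKM + 1) with or without the filter, 0.31 on log2(FPKM + 0.1) and 0.24 with the replicate block. Dtx3l (0.00) was -0.0064 without a count filter, -1e-04 with DESeq2, -0.0257 with limma-voom and -0.0234 with the replicate block, and Irf7 was -0.0155 with limma-voom. With 1 library left out, log2 fold changes ran from -0.39 to 0.47 in Isg15, -0.19 to 0.11 in Dtx3l, -0.0444 to 0.19 in Irf1, -0.14 to 0.20 in Bst2, -0.18 to 0.16 in Parp9, -0.12 to 0.33 in Parp14, -0.92 to 0.0739 in Oas3, -0.69 to 0.13 in Oasl2 and -0.15 to 0.97 in Usp18. They ran from -0.14 to 0.0186 in Ifnar1, -0.0061 to 0.11 in Ifngr2, -0.26 to 0.0766 in Traf6 and -0.77 to 0.32 in Cd274. Depth limits the 9 members under the filter, at no more than 54 counts in a library.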

Other observations

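Of the 103 tested genes of the other pathway lists, 16 (15.5%) had genotypes that did not overlap, against 11.1% of all tested genes. In 6 of them cKO lay above WT (5.26% of all tested genes) and in 10 below (5.82%), and 21 had an unadjusted edgeR p under 0.05 (20.4%, against 18.6% of all tested genes). Several of these genes, named here after their values were seen, lay just outside the threshold. Of the RNA sensors, Tlr3, which reads double-stranded RNA in endosomes, averaged 4.67 ± 0.247 CPM over the cKO and 2.501 ± 0.642 CPM over the WT libraries (edgeR adjusted p = 0.0753; errors here are SD over 4 libraries). Rigi, the cytosolic sensor RIG-I, was at 4.67 ± 1.49 against 2.39 ± 0.364 CPM (adjusted p = 0.0879). Jak2, a kinase bound to cytokine receptors, went the other way, at 28.2 ± 0.937 against 45.5 ± 10.1 CPM (adjusted p = 0.0552), and Slfn2, a regulator of lymphocyte quiescence, at 9.82 ± 2.88 against 26.1 ± 10.8 CPM (adjusted p = 0.0569). Tap1, the peptide transporter of MHC class I, was at 46.6 ± 3.92 against 31.2 ± 4.41 CPM (adjusted p = 0.0516), and Serpina3g, a protease inhibitor, at 4.33 ± 1.04 against 1.18 ± 0.634 CPM (adjusted p = 0.053). None of these passed in edgeR's test, each was called in 1 to 6 of 18 alternative fits, and none turned sign in any.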
